A study of Mus musculus with 6 samples.

Results

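The genes described here are 44 genes of the S phase and of mitosis, read from a table of 25,899 gene symbols by their listed names. By role, 26 act at the G1/S transition or in DNA replication and 18 in G2 and mitosis. The measurement was of freshly transcribed RNA from mouse embryonic stem cells, strain E14tg2a on a 129SV background, and all of them stably carried a cRAF-ErT2 cassette, a RAF kinase fusion that is switched on by 4-hydroxytamoxifen (4OHT) and in turn activates ERK. Both groups were first grown with serum, LIF and 2 µM Chir99021 (a GSK3 inhibitor) and then kept for 24 h in serum and LIF with 250 nM PD173074 (an FGF receptor inhibitor). One group was left untreated and the other received 250 nM 4OHT for 2 h, and each holds 1 library from each of 3 clones (a, b and c). RNA made in the last 15 min was labelled with 5 mM ethynyl uridine, captured and sequenced. No 4OHT-treated cells without the cassette were analysed here, so effects of 4OHT itself and of ERK cannot be told apart.

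Cells that leave G1 rely on cyclin E with CDK2 and on E2F factors, which drive the genes for origin licensing, the MCM helicase, DNA polymerases and nucleotide supply. Genes for cyclin B, CDK1, the spindle and the kinetochore are transcribed later, mostly from promoters read by the MuvB complexes with B-MYB and FOXM1. Embryonic stem cells divide quickly with a short G1, and much of this programme is active in most of them. The cells were not labelled as synchronised, so a change in the share of cells in a phase and a change in transcription per cell cannot be told apart in these bulk libraries.

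Library totals were 7,295,334 to 12,168,380 counts. Levels below are CPM (counts scaled to a common library total) after TMM scaling, which assumes that most genes do not change. In the edgeR test described below, 28.5% of all genes were called higher and 28.6% lower with it. Only 5948 of the 13,869 genes tested were not called, so the calls do not bear out that assumption. Errors of log2 fold changes are SE with n = 3 libraries per group. The treatment was seen at the ERK phosphatase gene Dusp6, whose mean was 4.4 times higher after 4OHT. All 7 embryonic stem cell markers were transcribed, with a summed level of 2438 to 2508 CPM untreated and 1938 to 2320.1 CPM after 4OHT. Of these 3 rose (Pou5f1 0.36, Zfp42 0.67 and Dppa4 0.86 on the log2 scale) and 3 fell (Nanog -1.66, Esrrb -1.32 and Sall4 -1.15). Of 10 fibroblast and feeder markers Lum and Postn had no count, 8 had a count and 4 could be tested (3 higher, 1 lower). The list summed to 10.2 to 11.4 CPM untreated and 64.2 to 101 CPM after 4OHT, mostly from Vim and Twist1. Their part in the results below was not tested.

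Of the 44 genes 42 passed the filter on low counts, with 846 to 23,530 counts each over the 6 libraries. The other 2, the licensing factor Cdt1 and the GINS subunit Gins2, had 0 counts in every library. Both lie on chromosome 8 inside the annotated span of Gm20388, a model of 4.43 Mb. All 71 protein-coding genes annotated inside that span had 0 counts, 35 of them on the other strand, so no level is given for Cdt1 or Gins2. Among the tested members 10 overlap another annotated gene in part of their span, by up to 11.8% except for Ccne2, of which 41.9% overlaps Ints8. Whether reads of such stretches were counted is not given in the sources used here. Of the other genes listed further below, Tk1, Bub3 and Prc1 also had 0 counts in every library. They lie inside the spans of Gm20708, Fgfr2 and Rccd1. All 29 protein-coding genes inside the Fgfr2 span had 0 counts, so no level is given for these genes either.

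With TMM scaling, 23 of the 42 tested members rose after 4OHT and 4 fell (edgeR quasi-likelihood test, adjusted p below 0.05). That is 54.8% higher and 9.52% lower, against 28.5% higher and 28.6% lower of all 13,869 genes tested. The changes were small: the median of the members was 0.21 on the log2 scale, against 0.00 for all genes, and only the phosphatase gene Cdc25b changed by more than 1. In 23 members every treated library lay above every untreated one and in 4 every treated library lay below, against 31.4% and 31.9% of all genes. Of the 27 calls, 17 held with any single library left out, and the other 10 are named with their values below. Those fits had no term for clone. With clone as a replicate block in the edgeR test on all 6 libraries, the same 10 had adjusted p of 4.0e-07 (Mcm5) to 0.0043 (Orc1). Leaving out untreated a, untreated b or 4OHT a (a library is named by its group and clone) reduced the lower members to 2, and leaving out both libraries of clone b reduced the higher members to 14.

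**Figure D1:**
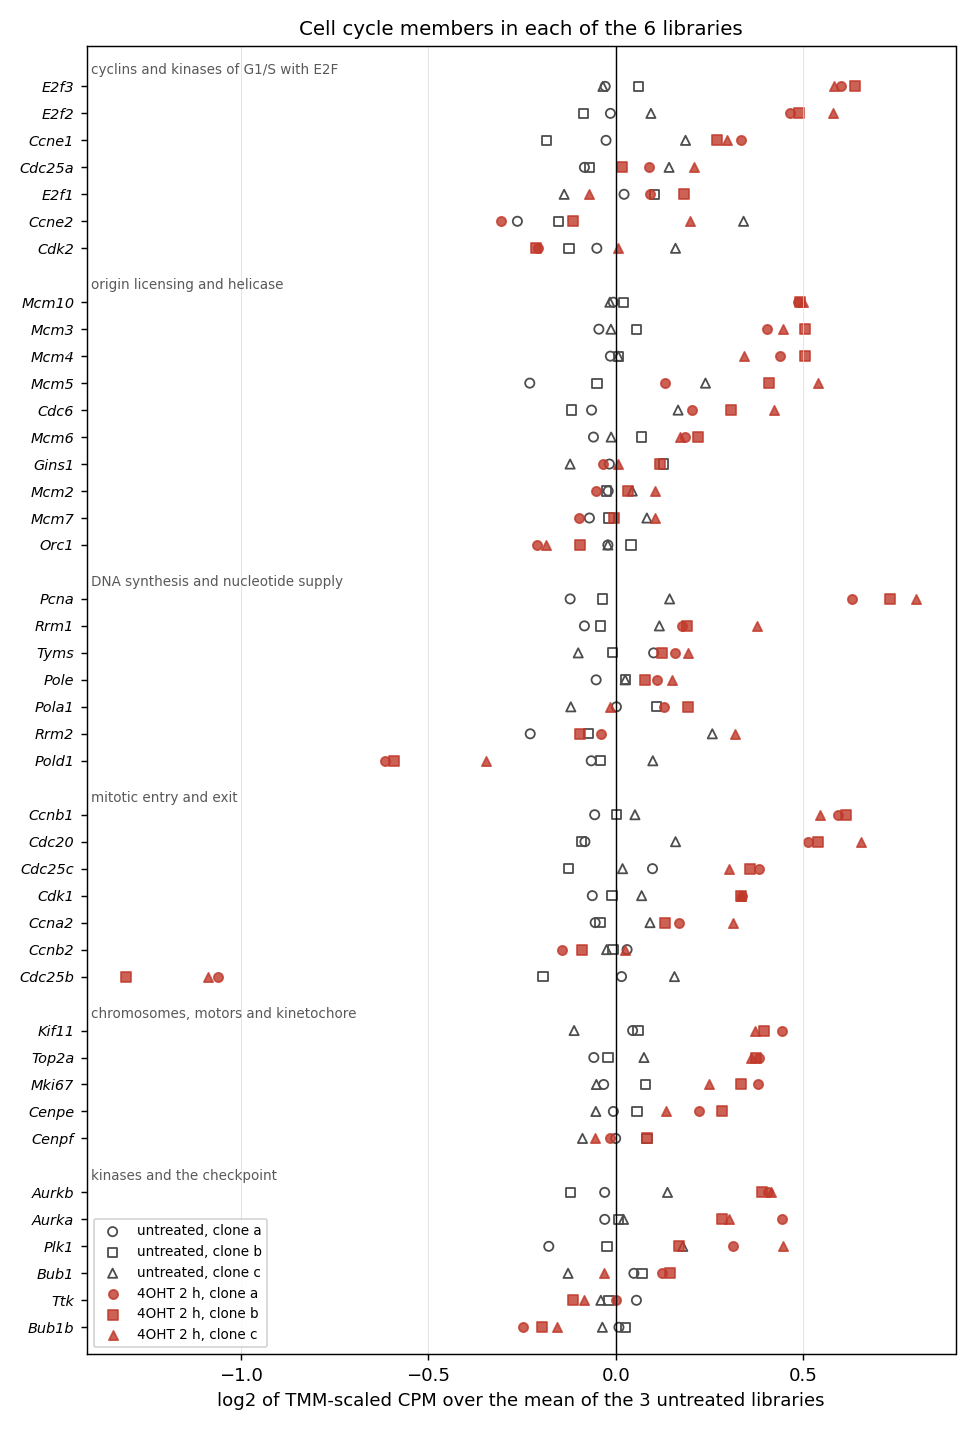
Level of the 42 tested members in each library, as log2 of TMM-scaled CPM over the mean of the 3 untreated libraries. Open symbols are untreated, filled red symbols are 4OHT for 2 h, and shapes mark clones a, b and c. Pcna lies farthest to the right and Cdc25b farthest to the left.

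Among the members, the G2/M and mitotic genes had a higher median response than the G1/S and replication genes. Of 18 tested G2/M genes 12 rose and 2 fell, with a median log2 fold change of 0.32. Of 24 tested G1/S genes 11 rose and 2 fell, with a median of 0.14. The G1/S median minus the G2/M median was -0.16 in clone a, -0.13 in clone b and -0.14 in clone c. In the fit over all clones it was -0.18, and no test was made of this difference. The longer lists of other genes, given further below, lay closer together, with medians of 0.19 (43 replication genes) and 0.23 (50 G2/M genes). By clone these medians were 0.20 and 0.26 (a), 0.22 and 0.20 (b) and 0.13 and 0.19 (c), so the order was reversed in clone b. With clone as a replicate block, 15 G1/S genes were called higher and 2 lower, and 12 G2/M genes higher and 2 lower, against 34.1% and 33.3% of all genes. Without untreated b, 7 G1/S genes were called higher.

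The scaling of the libraries decided most of the calls, while shifting the members by a nearly common step. DESeq2 size factors gave 23 members higher and 3 lower, against 28.5% and 28.6% of all genes. Upper quartile scaling gave 15 and 4, against 22.7% and 34.3%. By library size alone, which lowers the median of all genes to -0.20, 11 members were higher and 10 lower, against 17.4% and 41.0% of all genes. The fourth alternative scaled the libraries to the 13 loci with the highest counts, which held 15.5% to 20.0% of each library. It lowered the median of all genes to -0.31, and then 1 member was higher and 5 lower, against 9.94% and 40.0% of all genes. Upper quartile scaling lost the rises of Ccne1, Cdc6, Mcm5, Mcm6, Rrm1, Ccna2, Plk1 and Cenpe (adjusted p 0.077 to 0.26). Library size lost the same 8 and those of Cdk1, Cdc25c, Mki67 and Aurka (adjusted p 0.079 to 0.94), and the high-count loci lost all rises but that of Pcna. The median SE of the members was 0.18 in that fit and 0.07 in the others. With clone as a replicate block, library size gave 15 members higher and 15 lower, against 21.2% and 47.3% of all genes. The high-count loci with that block gave 4 and 12, against 13.2% and 48.2%.

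Under all 5 scalings Pcna was called higher and Pold1, Cdc25b and Bub1b lower, which is 1 and 3 of 42 members, against 9.90% and 28.5% of all genes. The alternatives left the median of all genes at 0.00 or lowered it, which favours lower calls and works against higher ones. Of all genes 3968 were lower with TMM and 3952 under all 5 scalings, while 3953 were higher with TMM and 1373 under all 5. A lower call under all 5 thus adds little to the call with TMM. No member was called in opposite directions under different scalings. Under each of the 5 scalings 33 or 34 of the 42 members lay above the median of all genes. The G1/S median minus the G2/M median was -0.18 under each of them. Neither could change much, because a scaling shifts all genes by a nearly common step, so this sameness is no support for either. Of the medians of the 2 phases only that of G1/S turned its sign: it was 0.14 with TMM, -0.06 by library size and -0.17 by the high-count loci, while the G2/M median was 0.32, 0.12 and 0.01. The median of all members turned as well, from 0.21 with TMM to 0.01 by library size and -0.10 by the high-count loci. Of the 42 members 12 had the other sign by library size and 15 by the high-count loci.

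**Figure D2:**
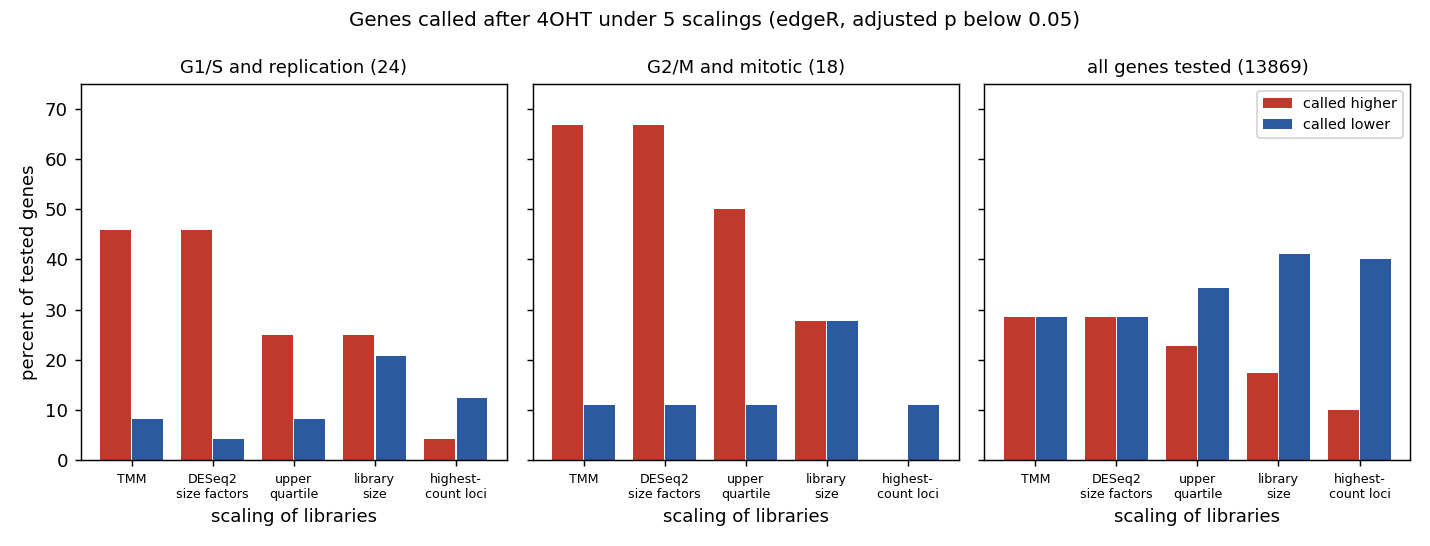
Percent of genes called higher (red) and lower (blue) after 4OHT under 5 scalings of the libraries, for the 24 G1/S, the 18 G2/M and all 13,869 tested genes. Higher calls fall from 66.7% to 0% of the G2/M genes and from 45.8% to 4.17% of the G1/S genes between TMM and the high-count loci.

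**Figure D3:**
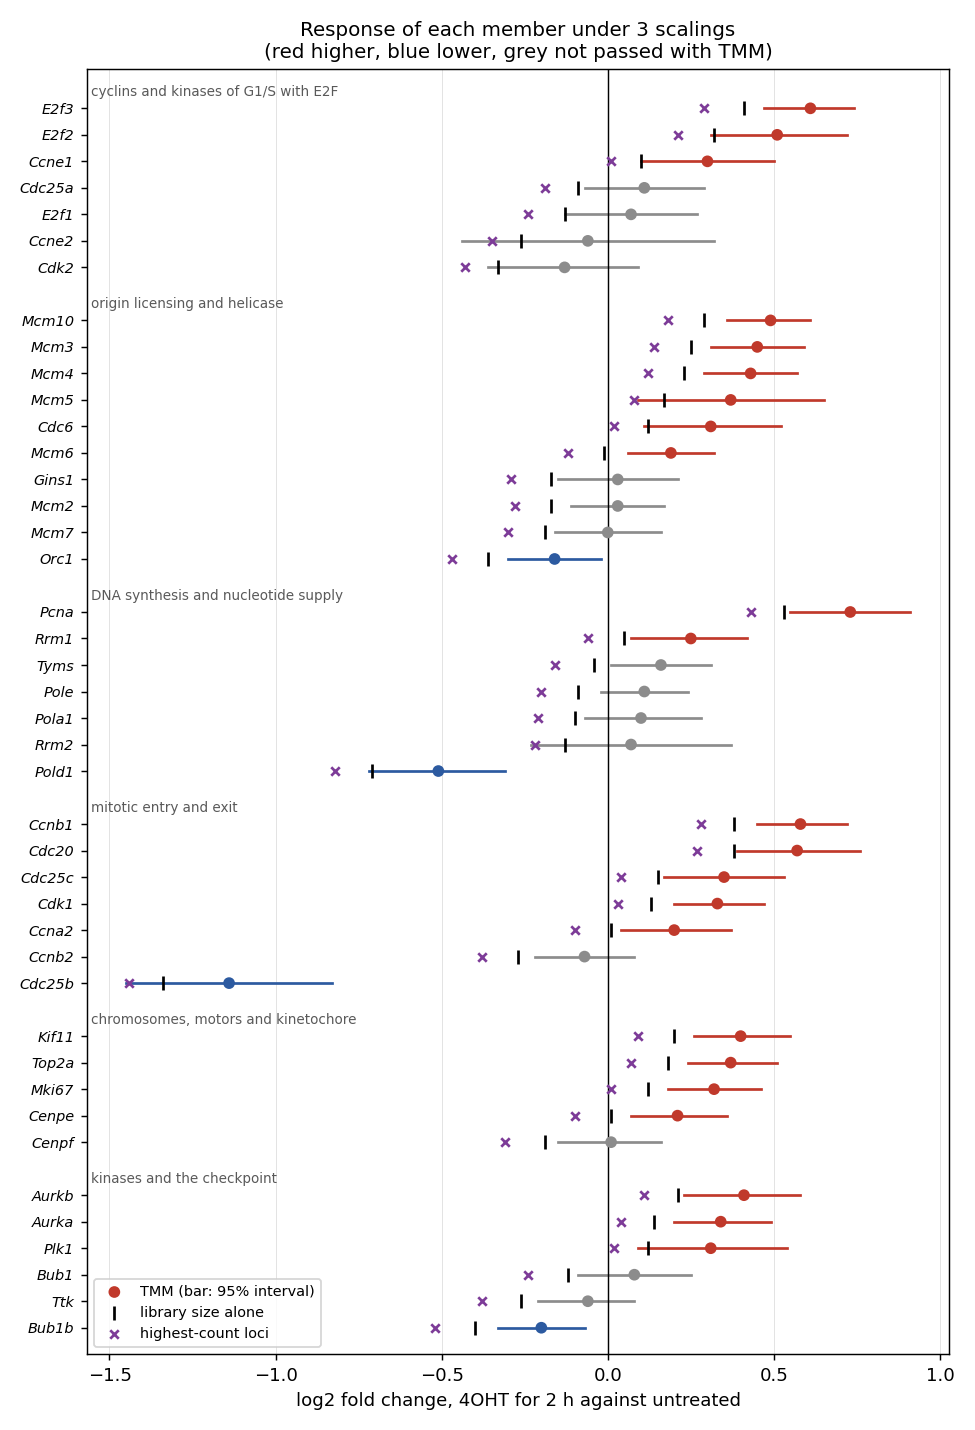
Log2 fold change of each tested member with TMM (dot, with the 95% interval of the fit), by library size alone (black tick) and by the highest-count loci (purple cross). Ticks and crosses sit to the left of every dot by a nearly constant step, as the fold changes of Pcna (0.73, 0.53 and 0.43) and Cdc25b (-1.14, -1.34 and -1.44) show.

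Promoters were read for 36 of the 44 members from RefSeq (GRCm38.p6, 250 bases before to 50 after the start site). They were searched on both strands for the E2F form TTCCCGC or its variants TTGGCGC as well as TTCGCGC and finally TTGCCGC. The cell cycle homology element CHR was searched as TTTGAA, the NF-Y box as CCAAT, and an ETS form as CCGGAAG. An E2F form was present in 15 of 21 G1/S members (71.4%) and 3 of 15 G2/M members (20%). Of all 27,025 genes with a promoter there, 10.9% hold it, and of the 10,619 tested genes with a promoter 19.1%, close to the G2/M share. The CHR form was in 3 of 21 G1/S members (14.3%) and 11 of 15 G2/M members (73.3%), against 20.2% of all genes and 14.3% of tested genes. CCAAT was in 15 of the 21 and in 15 of the 15, against 41.1% of all and 42.8% of tested genes. The ETS form, of interest because ETS factors are targets of ERK, was in 4 of 21 (19%) and 4 of 15 members (26.7%), against 9.93% of all genes and 18.9% of tested genes. It was in 4 of 19 members called higher and in 4 of 16 tested members not called higher. These are letter matches in a fixed window, and binding was not measured.

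The promoters below, shown as examples of both kinds, are those of the 2 members of each phase with the smallest adjusted p among those whose window holds the E2F (G1/S) or CHR (G2/M) form. Each is printed from 100 bases before the start site to 30 after it, on the strand of the gene, with capitals for matches, on either strand, to the E2F form in E2f3 and Mcm3 and to the CHR form in Cdc20 and Kif11. Matches to the other forms stay in lower case, among them 1 CHR match in the E2f3 promoter. E2f3 is at chr13:29986034-29986163 (minus strand), Mcm3 at chr1:20820283-20820412 (minus), Cdc20 at chr4:118437314-118437443 (minus) and Kif11 at chr19:37376282-37376411 (plus). Mcm3 holds 3 E2F matches in the whole window, 1 of them in the printed stretch.
E2f3: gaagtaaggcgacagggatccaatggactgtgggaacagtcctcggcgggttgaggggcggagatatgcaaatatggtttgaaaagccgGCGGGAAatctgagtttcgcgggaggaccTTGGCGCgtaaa
Mcm3: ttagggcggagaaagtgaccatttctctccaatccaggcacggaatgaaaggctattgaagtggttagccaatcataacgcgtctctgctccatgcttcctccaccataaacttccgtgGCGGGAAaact
Cdc20: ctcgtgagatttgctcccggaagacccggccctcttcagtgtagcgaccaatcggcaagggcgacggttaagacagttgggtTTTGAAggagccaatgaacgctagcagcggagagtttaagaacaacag
Kif11: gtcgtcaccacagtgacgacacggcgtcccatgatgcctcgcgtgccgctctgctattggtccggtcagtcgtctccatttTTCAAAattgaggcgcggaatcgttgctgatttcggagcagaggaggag

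Among the G1/S regulators, the 3 E2F activators had unequal values. E2f3 (chr13:29906575-29986063, minus strand) was at 239, 254 and 238 CPM untreated (here and below in the order of clones a, b, c) and at 369.7, 379 and 365 CPM after 4OHT. The groups were far apart, and E2f3 rose by 0.61 ± 0.06 (adjusted p = 1.6e-05). E2f2 went from 20.6, 19.6 and 22.2 to 28.7, 29.2 and 31.1 CPM, again without overlap, and rose by 0.51 ± 0.09 (adjusted p = 9.9e-04). E2f1, the first member of the family to be described and itself an E2F target, was at 56.3, 59.6 and 50.4 CPM untreated and at 59.1, 62.9 and 52.8 CPM after 4OHT. Its groups overlapped, and its log2 fold change was 0.07 with a 95% interval of -0.13 to 0.27 (adjusted p = 0.51).

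Of the cyclin E genes 1 passed the test. Ccne1, which encodes cyclin E1, was at 87.2, 78.1 and 101 CPM untreated and at 112, 107 and 109 CPM after 4OHT, higher in every clone. It rose by 0.30 ± 0.09 (adjusted p = 0.016), a call lost without untreated b (adjusted p = 0.069) and by library size (log2 fold change 0.10). Ccne2, for cyclin E2, had a log2 fold change of -0.06 with an interval of -0.44 to 0.32, the widest among the members. Cdk2, the kinase partner of cyclin E, had -0.13, and Cdc25a, the phosphatase that activates it, had 0.11. Neither passed the test, although Cdk2 was called lower by library size (-0.33) and by the high-count loci (-0.43), and Cdc25a passed with clone as a replicate block (adjusted p = 0.041).

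Of 10 tested licensing and helicase genes 6 rose and 1 fell with TMM (60% and 10%, against 28.5% and 28.6% of all genes). By the high-count loci 0 were higher and 1 lower, against 9.94% and 40.0% of all genes. Mcm10, a scaffold of the replication fork that loads polymerase, was at 155, 158 and 154 CPM untreated and at 218, 219 and 220.1 CPM after 4OHT. The libraries of each group lay close together, and Mcm10 rose by 0.49 ± 0.06 (adjusted p = 4.3e-05). Cdc6, the loader of the helicase, rose by 0.31 ± 0.09, a call lost without untreated b (adjusted p = 0.063). Orc1, the largest subunit of the origin recognition complex, was at 138, 144 and 138 CPM untreated and at 121, 131 and 123 CPM after 4OHT. It fell by 0.16 on the log2 scale (SE 0.06, adjusted p = 0.045). That call was lost without untreated a, untreated b, 4OHT a or 4OHT c (adjusted p 0.091 to 0.16) and with DESeq2 size factors. The GINS subunit Gins1 had 0.03 with an interval of -0.15 to 0.21.

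The MCM helicase is a ring of 6 different subunits. With TMM 4 of their genes rose while 2 did not pass the test, against 28.5% of all genes higher. Mcm3 was at 222, 238 and 227 CPM untreated and at 303, 325 and 312 CPM after 4OHT, and rose by 0.45 ± 0.06 (adjusted p = 1.5e-04). Mcm4 was at 136, 138 and 138 CPM untreated and at 186, 195 and 174 CPM after 4OHT, and rose by 0.43 ± 0.06 (adjusted p = 2.3e-04). Mcm5 was at 219, 248 and 303 CPM untreated and at 281, 341 and 373 CPM after 4OHT. Its groups overlapped because clone c was high in both, while each clone was higher after treatment. Mcm5 rose by 0.37 ± 0.13 (adjusted p = 0.029), with an adjusted p of 4.0e-07 once clone was a replicate block. The Mcm5 call was lost without untreated a, untreated b, 4OHT b or 4OHT c (adjusted p 0.087 to 0.10).

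The other MCM genes had smaller values. Mcm6 rose by 0.19 ± 0.06 (adjusted p = 0.021), not without untreated a, 4OHT a or 4OHT b (adjusted p 0.052 to 0.10). Mcm2 had 0.03 with an interval of -0.11 to 0.17, and Mcm7 had 0.00 with an interval of -0.16 to 0.16. By library size Mcm2 (-0.17) and Mcm7 (-0.19) were called lower, and Mcm6 was at -0.01.

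In DNA synthesis Pcna and Pold1 moved in opposite directions. Pcna (chr2:132249162-132253314, minus strand) encodes the sliding clamp that holds polymerases on DNA. It was at 114, 121 and 137 CPM untreated and at 192, 206 and 216 CPM after 4OHT, a ratio of means of 1.65. Pcna rose by 0.73 ± 0.08 (adjusted p = 3.8e-05), the highest value among the members, and by 0.43 with the high-count loci (adjusted p = 0.034). Pold1 (chr7:44532746-44548849, minus strand), the catalytic subunit of polymerase delta, which works on that clamp, was at 55.6, 56.6 and 62.3 CPM untreated and at 38, 38.6 and 45.8 CPM after 4OHT. It fell by 0.51 on the log2 scale (SE 0.09, adjusted p = 7.8e-04), and by 0.82 with the high-count loci.

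The other synthesis genes stayed within 0.25. Rrm1, the large subunit of ribonucleotide reductase, was at 101, 104 and 116 CPM untreated and at 121, 122 and 139 CPM after 4OHT. It rose by 0.25 ± 0.08 (adjusted p = 0.021), a call lost without untreated a, untreated b or 4OHT c (adjusted p 0.056 to 0.084). Its partner Rrm2, whose level limits the enzyme outside S phase, had 0.07 with an interval of -0.23 to 0.37. Tyms, for thymidylate synthase, had 0.16, and the catalytic polymerase subunits Pole and Pola1 had 0.11 and 0.10. These 3 missed the threshold (adjusted p 0.069 to 0.28) and passed it with clone as a replicate block (adjusted p = 0.011, 0.04 and 0.03). Tyms also passed without untreated a (adjusted p = 0.043).

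Of 7 genes of mitotic entry and exit 5 rose and 1 fell with TMM (71.4% and 14.3%, against 28.5% and 28.6% of all genes). By the high-count loci 0 were higher and 1 lower, against 9.94% and 40.0% of all genes. Ccnb1 (chr13:100778650-100786570, minus strand) encodes cyclin B1, the partner of CDK1. It was at 259, 269.7 and 279 CPM untreated and at 406, 412 and 393 CPM after 4OHT, and rose by 0.58 ± 0.06 (adjusted p = 2.3e-05). The related Ccnb2 had -0.07 with an interval of -0.22 to 0.08, and was called lower by library size (-0.27, adjusted p = 0.0084). Cdk1 itself was at 241, 249.9 and 264 CPM untreated and at 318, 317 and 317 CPM after 4OHT. It rose by 0.33 ± 0.06 (adjusted p = 9.7e-04), and by library size had 0.13 (adjusted p = 0.079).

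Cdc20, the activator of the anaphase-promoting complex, was at 70.8, 70.3 and 83.7 CPM untreated and at 107, 109 and 118 CPM after 4OHT. It rose by 0.57 ± 0.08 (adjusted p = 2.1e-04). Ccna2, for cyclin A2, which acts in S phase and G2, was at 98.5, 99.4 and 109 CPM untreated and at 115, 112 and 127 CPM after 4OHT. It rose by 0.20 ± 0.07 (adjusted p = 0.034), the smallest of the 5 rises in this class. The Ccna2 call was lost without untreated a, untreated b, 4OHT a or 4OHT c (adjusted p 0.052 to 0.12).

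The 3 CDC25 phosphatases, which remove the inhibitory phosphates from CDKs, did not share a direction. Cdc25b (chr2:131186949-131198497, plus strand), linked to the start of mitosis, was at 18.5, 16 and 20.4 CPM untreated and at 8.78, 7.41 and 8.61 CPM after 4OHT. Every treated library was below every untreated one, and Cdc25b fell by 1.14 on the log2 scale (SE 0.14, adjusted p = 6.8e-05), to 0.452 of the untreated mean. It is the lowest-count member, with 846 counts over the 6 libraries, and its span overlaps Spef1 by 2.89%. Cdc25c rose by 0.35 ± 0.08 (adjusted p = 0.0045), and Cdc25a, as given above, had 0.11.

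Among mitotic kinases and checkpoint genes 3 of 6 rose and 1 fell with TMM (50% and 16.7%, against 28.5% and 28.6% of all genes). By the high-count loci 0 were higher and 1 lower, against 9.94% and 40.0% of all genes. Aurka and Aurkb encode the Aurora kinases of the spindle poles and of the centromere. Aurka was at 116, 119 and 120.1 CPM untreated and at 161, 144 and 146 CPM after 4OHT, and rose by 0.34 ± 0.06 (adjusted p = 0.0012). Aurkb was at 45.5, 42.7 and 51.1 CPM untreated and at 61.5, 60.8 and 61.9 CPM after 4OHT, and rose by 0.41 ± 0.08 (adjusted p = 0.0016). Neither gene had overlapping groups. Plk1, the Polo kinase of mitotic entry, was at 59.8, 66.6 and 76.6 CPM untreated and at 84.1, 76.1 and 92.2 CPM after 4OHT, so that its groups overlapped. Plk1 rose by 0.31 ± 0.10 (adjusted p = 0.023), a call lost without untreated a, untreated b, 4OHT a or 4OHT c (adjusted p 0.052 to 0.088).

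The spindle checkpoint genes among the members (Bub1b, Bub1 and Ttk) lay lower than the Aurora and Polo kinase genes. Outside the members, the checkpoint gene Mad2l1 rose by 0.33 ± 0.06 (adjusted p = 0.0012), a call lost by library size (0.13, adjusted p = 0.093). Bub1b (chr2:118598211-118641591, plus strand), whose product BUBR1 holds back CDC20, was at 166, 168 and 161 CPM untreated and at 139, 144 and 148 CPM after 4OHT. It fell by 0.20 on the log2 scale (SE 0.06, adjusted p = 0.014), a small change. It was called under all 5 scalings, as were 3952 of the 3968 genes that were lower with TMM. The call was lost without untreated a, untreated b or 4OHT a (adjusted p 0.051 to 0.066). The checkpoint kinases Bub1 and Ttk had 0.08 and -0.06 and did not pass the test, and Ttk was called lower by library size (-0.26, adjusted p = 0.0082).

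Of 5 genes for chromosomes, motors and the kinetochore 4 rose and 0 fell with TMM (80% and 0%, against 28.5% and 28.6% of all genes). By the high-count loci 0 were higher and 0 lower, against 9.94% and 40.0% of all genes. Kif11, the motor that pushes spindle poles apart, was at 201, 203 and 180.4 CPM untreated and at 265, 256 and 252 CPM after 4OHT, and rose by 0.40 ± 0.07 (adjusted p = 5.1e-04). Top2a, the topoisomerase that untangles sister chromatids, was at 340.0, 349 and 373 CPM untreated and at 461, 459 and 455 CPM after 4OHT, and rose by 0.37 ± 0.06 (adjusted p = 5.4e-04). Mki67, the gene of the proliferation marker Ki-67, was at 149, 161 and 147 CPM untreated and at 198, 192 and 181 CPM after 4OHT, and rose by 0.32 ± 0.06 (adjusted p = 0.0018). All 3 kept their groups apart.

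Of the kinetochore genes Cenpe passed the test and Cenpf did not. Cenpe rose by 0.21 ± 0.06 (adjusted p = 0.016), not without untreated a or 4OHT b (adjusted p = 0.055 and 0.071). Cenpf had 0.01 with an interval of -0.15 to 0.16. Between the members, gene length ran from 4.15 kb (Pcna) to 327 kb (Pola1). Across the 42 genes the response had Spearman's rho of -0.0825 with gene length and 0.251 with the untreated CPM, a description over genes that share the same 6 libraries.

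Differences between related members within the same libraries do not depend on any scaling, because its factor cancels. For 19 such pairs of genes, chosen after the values were seen, the log2 response of one gene was set against that of the other in each clone. Pcna exceeded Pold1 by 1.30, 1.33 and 1.10 in clones a, b and c. Cdc25c exceeded Cdc25b by 1.36, 1.60 and 1.53, and Ccnb1 exceeded Ccnb2 by 0.82, 0.69 and 0.44. E2f3 exceeded E2f1 by 0.56, 0.50 and 0.55, and Mcm3 exceeded Mcm7 by 0.48, 0.43 and 0.43. Bub1 exceeded Bub1b by 0.34, 0.29 and 0.21. The pairs Aurkb and Aurka (-0.03, 0.24 and -0.01) and Mcm2 and Mcm7 (-0.01, 0.04 and 0.04) had no common sign in the 3 clones. In the other 17 pairs the sign was shared, although E2f3 minus E2f2 was 0.00 in clone b. Because the pairs were chosen on these values and some share a gene, that count is only a description. With 3 libraries against 3, taken without pairing by clone, the two-sided exact permutation test cannot go below 0.1. That value was reached by 12 pairs (Benjamini-Hochberg adjusted p = 0.158 over the 19 pairs). No pair could pass a threshold of 0.05 whatever its values, so the test decides nothing about these pairs.

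**Figure D4:**
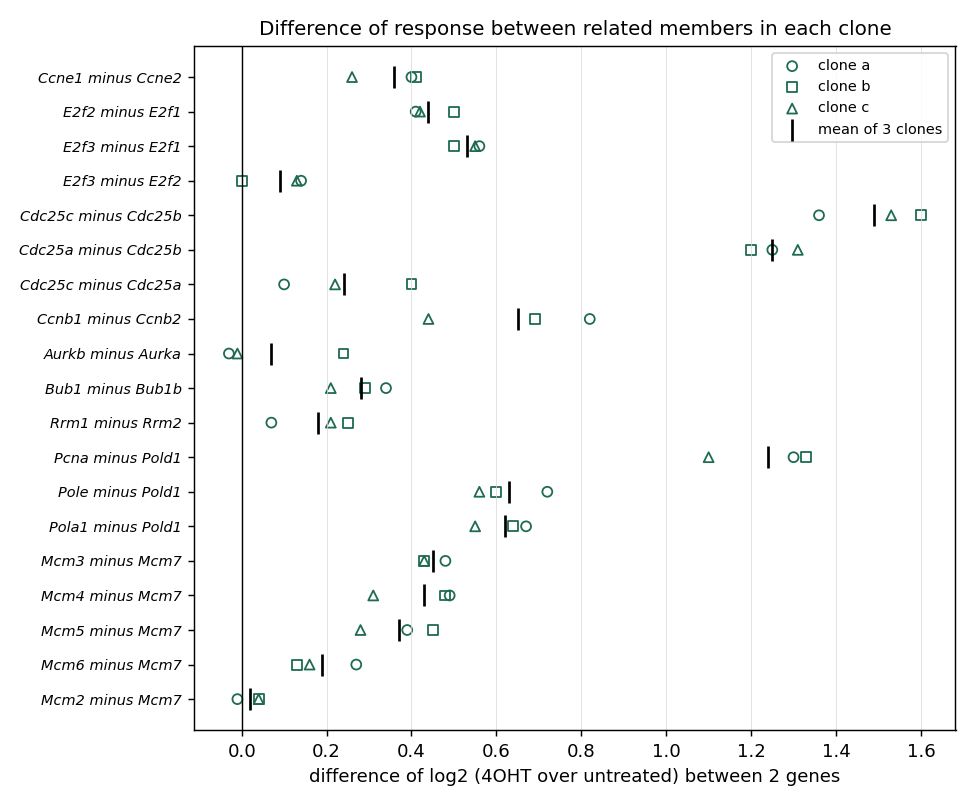
Difference of the log2 response (4OHT over untreated) between 2 related genes of the same libraries, for 19 pairs, in clones a, b and c (symbols) with the mean of the clones (black tick). The CDC25 pairs with Cdc25b and the pair of Pcna and Pold1 lie above 1 in every clone, and Mcm2 minus Mcm7 lies at 0.

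Other genes of the same pathways were followed in 3 further lists. Of 45 other replication genes 43 were tested, of which 21 rose and 5 fell with TMM (median 0.19), which is 48.8% and 11.6%, against 28.5% and 28.6% of all genes. By the high-count loci 1 was higher and 7 lower (2.33% and 16.3%, against 9.94% and 40.0% of all genes). A replicate block for clone gave 25 and 7 (all genes 34.1% and 33.3%). Slbp, which binds histone mRNA and overlaps Gm10459, rose by 0.86 ± 0.10 and the clamp loader gene Rfc5, which overlaps Wsb2, by 0.58 ± 0.06. Pole2, the second subunit of polymerase epsilon, which overlaps Gm49384, rose by 0.53 ± 0.08. The chromatin assembly gene Chaf1a, which overlaps Ubxn6, rose by 0.40 ± 0.06, while the related Chaf1b fell by 0.27 (SE 0.08, adjusted p = 0.012). Pola2, the second subunit of polymerase alpha, fell by 0.63 on the log2 scale (SE 0.08), Mcm8 by 0.52 (SE 0.09), the origin subunit gene Orc5 by 0.50 (SE 0.07) and Rpa1, for a single-strand binding protein, by 0.28 (SE 0.07).

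Of 52 other G2/M genes 50 were tested, of which 30 rose and 4 fell (median 0.23), which is 60% and 8%, against 28.5% and 28.6% of all genes. By the high-count loci 2 were higher and 7 lower (4% and 14%, against 9.94% and 40.0% of all genes). A replicate block for clone gave 31 and 6 (62% and 12%, against 34.1% and 33.3% of all genes). The condensin gene Ncapg, which overlaps Lcorl, rose by 0.79 ± 0.06, the CDK-binding gene Cks2 by 0.63 ± 0.06, the centromeric histone gene Cenpa by 0.59 ± 0.06 and the condensin gene Smc2 by 0.54 ± 0.06. The 4 that fell with TMM were Gtse1 (-0.65), Mybl2 (-0.63), Kif18a (-0.49), which overlaps Mettl15, and Spc25 (-0.26). Mybl2 encodes B-MYB, the factor that joins MuvB in S phase. Foxm1, which overlaps Gm44596 and Tex52, rose with TMM by 0.31 ± 0.08 (adjusted p = 0.0071). That call was lost by library size (0.12, adjusted p = 0.25) and by the high-count loci (0.01, adjusted p = 0.98). Of the MuvB genes in this list Lin54 rose by 0.36 ± 0.07 (adjusted p = 0.0018), a call lost by library size (0.16, adjusted p = 0.1). Lin9 (-0.02), Lin37 (0.29) and Lin52 (0.07) did not pass the test. Of 10 further E2F and RB genes 3 rose and 2 fell, 30% and 20%, near the 28.5% and 28.6% of all genes. By the high-count loci 1 was higher and 4 lower (10% and 40%, near the 9.94% and 40.0% of all genes). The block gave 5 and 3 (50% and 30%, against 34.1% and 33.3% of all genes). E2f6 (0.74 ± 0.11), a repressor of the family, E2f8 (0.54 ± 0.13) and Rb1 (0.40 ± 0.07), which overlaps Lpar6 and Rcbtb2, rose, and the E2F partners Tfdp1 (-0.50) and Tfdp2 (-0.38), which overlaps Gm37195, fell.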

How the data were processed

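Nascent RNA was captured from 6 libraries. Alignment by STAR and counting by featureCounts on mm10 are named in the submitters' processing notes. For their versions, the counted feature and the strand setting, nothing is given. The authors deposited unnormalized counts, in whole reads for each symbol. Positions are from GENCODE M21 (GRCm38, the assembly of mm10), in which all 44 symbols were found once. Nothing says that clones were cultured separately in time, and no batch is labelled. A p-value thus reflects only how far these particular libraries vary, which may be technical. Clones a and b lay closest, with a chi-square per gene between their counts of 2.14 (untreated) and 1.99 (4OHT). Clone c stood apart, with 8.49 (from a) and 8.9 (from b) untreated, and 5.5 and 4.28 after 4OHT.

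Counts were tested over the whole table with edgeR 4.0.16 in R 4.3.3: filterByExpr (minimum count 10, minimum total 15) left 13,869 genes, TMM scaled the libraries, and glmQLFTest compared 3 with 3 libraries with no term for clone. Benjamini-Hochberg adjustment ran over all genes, with calls below 0.05. The SE is the log2 fold change divided by the square root of F. TMM factors were 1.05 to 1.08 untreated and 0.929 to 0.939 after 4OHT. No scaling within libraries can show a change in total transcription.

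The labels give the same clone in both groups, so libraries are paired. Libraries of a clone deviated together from their groups, with correlations of 0.282 (a), 0.165 (b) and 0.357 (c). The blocked value is printed for each member whose call it changes, and for the 3 other lists as counts. The members, lists and alternatives were chosen with earlier results of these data known. Named with values in every library are Ccne1, E2f1, Mcm5, Pcna, Ccna2, Ccnb1, Cdk1, Mki67 and, per role class, up to 3 members with the smallest adjusted p in each direction. From the 3 other lists up to 4 per direction are named. Besides these Chaf1b, Mad2l1, Foxm1, the MuvB genes and the untested Tk1, Bub3 and Prc1 are named. The highest-count loci are the 13 genes with at least 200,000 counts in all. DESeq2 1.42.0 and limma-voom (limma 3.58.1) were alternatives.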

Additional observations from a re-analysis of the deposited data

How the results depend on the processing

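The number of members called higher (23 with TMM) was 15 with upper quartile scaling, 11 by library size, 1 by the high-count loci and 15 at an adjusted p below 0.01, and 14 to 23 with libraries or a clone left out. Lower members (4) were 10 by library size, 2 at 0.01 and 2 to 5 with libraries left out. For G1/S genes higher calls (11) were 6, 6, 1 and 6 in the same 4 settings and 6 to 11 with libraries left out. Lower G1/S calls (2) were 5 by library size and 1 with DESeq2 size factors, no filter, DESeq2 with or without the block, or 0.01, and 1 to 2 with libraries left out. For G2/M genes higher calls (12) were 5 by library size, 0 by the high-count loci and 8 to 12 with libraries left out, and lower calls (2) were 5, 1 at 0.01 and 1 to 3. That 0 is by edgeR, with 0 higher and 4 lower at an unadjusted p below 0.05, against 12 higher calls with TMM. All genes called higher were 2408 by library size and 1379 by the high-count loci. For the fits at 0.01 or with libraries left out the share of all genes is not given, so those counts describe the members alone.

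The G1/S median was 0.04 with upper quartile scaling, -0.06 by library size, -0.17 by the high-count loci and 0.09 to 0.17 with libraries left out. The G2/M median was 0.22, 0.12 and 0.01, and 0.25 to 0.33. Their difference was -0.21 to -0.12 with libraries left out. Of the members 12 had the other sign by library size. Among those called in either setting these were Mcm2 (-0.17), Mcm6 (-0.01), Mcm7 (-0.19) and Cenpf (-0.19). By the high-count loci 15 had the other sign, among them, with a call in either setting, Mcm6 (-0.12), Rrm1 (-0.06), Ccna2 (-0.10) and Cenpe (-0.10).

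With clone as a replicate block 27 members were higher and 4 lower, and 4 calls were gained. Added after seeing the data, the replicate block with library size gave 15 and 15, and with the high-count loci 4 and 12. DESeq2 lost the calls of Orc1 and Ccna2. The filter of CPM of at least 1 and limma-voom changed no call of a member. The cause of these changes was not tested, beyond the shift that each scaling gives all genes. The lowest-count member had 846 counts, and which calls are limited by depth or by the 3 libraries per group was not tested.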
